A study of Homo sapiens with 12 samples.

Results

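The features described here are unannotated transcribed loci, the entries of the deposited count table that carry a numbered new-gene identifier in place of an Ensembl gene identifier. Members were the 3289 loci with a summed count of at least 120 over the 12 libraries, out of 7531 such loci and 27505 features in all. The rule used count totals over all libraries, so abundance and detection are given as description. The data came from WERI-Rb-1 (WERI below) and Y79, 2 established human retinoblastoma lines labelled as wild type. Each line received 0.1% DMSO, the vehicle, or 50 nM THZ1 for 12 h, giving 4 groups of 3 libraries from total RNA. THZ1 is a covalent inhibitor of CDK7 that also binds CDK12 and CDK13. The series describes the libraries of a group as biological samples, and each line is a single tumour-derived line grown in serum-containing medium.

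CDK7 is the kinase of the general transcription factor TFIIH; it phosphorylates the tail of RNA polymerase II as transcription starts, while CDK12 and CDK13 act later during elongation. A locus outside the annotation is a stretch covered by enough reads for a transcript assembler to report it although no gene model of the annotation is there. Such collections usually hold noncoding RNAs, antisense transcripts, transcribed enhancers and repeats, and RNA that runs past the ends of known genes. The mRNAs of the mitochondrial genome, whose symbols start with MT-, are made by a separate polymerase and served here as a further scale.

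The annotated part of the table limits what can appear under Ensembl identifiers. All 19974 Ensembl identifiers matched GENCODE release 29, and 19922 of them were protein-coding genes. None of the 16054 long noncoding RNA genes of that release was among the Ensembl identifiers. A known long noncoding RNA therefore had no entry of its own under an Ensembl identifier. The loci were identified here by number alone; position, strand and sequence were not used here, and no locus could be assigned to a gene. The library kit does not mark strand, so reads from a locus and from a gene on the opposite strand at the same place cannot be told apart.

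Total counts per library ranged from 29677575 to 37433574. All 8 photoreceptor-lineage markers had at least 10 counts in every library of each group. They summed to 2324 to 2435 CPM (counts scaled to a common library size) in WERI with DMSO and 1597 to 1628 CPM with THZ1, and to 1518 to 1527 and 891 to 986 CPM in Y79. Single markers moved both ways. In WERI the means of CRX, OTX2 and THRB were lower with THZ1, and those of RCVRN, NRL, ARR3, PDE6H and NEUROD1 were higher. In Y79 RCVRN and PDE6H were higher, NRL was at 49.1 CPM in both groups, and the other markers were lower. The 10 markers of other cells (retinal pigment epithelium, glia, stroma, endothelium, blood) summed to 29.2 to 39.2 CPM in WERI with DMSO and 60.4 to 92.5 CPM with THZ1. In Y79 the sums were 8.70 to 14.01 and 18.3 to 49.4 CPM. The highest of these markers in WERI were COL1A1 (means of 24.8 CPM with DMSO and 52.4 with THZ1) and BEST1 (5.94 and 24.2). In Y79 they were RPE65 (4.49 and 3.51) and BEST1 (3.06 and 20.7). BEST1 varied widely between treated libraries, with an SD of 16.8 CPM in WERI and 17.95 in Y79. At 0 were DCN in both DMSO groups, PECAM1 in Y79 DMSO, PTPRC in WERI THZ1, HBB in Y79 THZ1 and RLBP1 in WERI THZ1 and both Y79 groups. The part of these marker levels in the results was not tested. One library stood apart: ribosomal protein mRNAs took 14.8% of the counts of Y79 THZ1 replicate 2, against 10.9% and 10.6% in the other treated Y79 libraries.

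Most loci were sparsely covered and a few were very abundant. The summed count of a member had a median of 550 and reached 1511310. The 10 most abundant members held 33.0% of all member counts, and the 100 most abundant held 60.9%. Members together held 99.05% of the counts of all 7531 loci. At the edge of the rule, 46 members had sums less than 5 counts above the minimum, and 49 loci just outside it lay up to 5 counts below. Without the group in which they were highest, 764 members would have fallen below the minimum. By comparison, 14340 Ensembl genes reached the same summed count.

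More loci were in use in WERI than in Y79, and the same held for Ensembl genes. A locus was called used in a group when each of its 3 libraries had at least 10 counts. By that measure 2450 loci were used in WERI with DMSO, 2569 in WERI with THZ1, 2278 in Y79 with DMSO and 2296 in Y79 with THZ1. All 4 groups used 1526 loci, and 71 members met the measure in none. In DMSO both lines used 1905 loci, which were 77.8% of the WERI set and 83.6% of the Y79 set. By the same measure 13729 Ensembl genes were used in WERI and 13048 in Y79 with DMSO. For them the shared set was 92.4% of the WERI genes and 97.2% of the Y79 genes. Detection of the loci therefore overlapped less between the lines than detection of annotated genes, and the loci were also the less abundant class.

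A stricter measure separated line-restricted loci. In DMSO, 131 loci were used in WERI and had 3 counts or fewer in each Y79 library, and 69 showed the reverse pattern. They were 5.35% of the loci used in WERI and 3.03% of those used in Y79. By the same measure 364 Ensembl genes (2.65% of those used) were restricted to WERI and 88 (0.674%) to Y79. Of the 131 loci, 97 also stayed at 3 counts or fewer in every treated Y79 library, as did 47 of the 69 in treated WERI. The restricted loci were mostly low, with median DMSO levels of 1.10 CPM (WERI) and 1.22 CPM (Y79). All of these values are descriptive, since the counts themselves chose the loci.

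The strongest restricted loci were far from rare. The most abundant WERI-restricted locus had 2728, 2440 and 3382 counts in DMSO and 2369, 2818 and 2791 counts with THZ1. In Y79 the same locus had 0, 1 and 3 counts in DMSO and 3, 7 and 7 with THZ1. Its DMSO level was 65.6 ± 7.23 CPM (SD, n = 3) in WERI, a ratio to Y79 of 2035 with a 95% counting interval of 794 to 7470. The most abundant Y79-restricted locus had 0 counts in all 6 WERI libraries. In Y79 it had 5128, 4601 and 5067 counts in DMSO and 2341, 1892 and 2866 with THZ1. Its level was at least 1722-fold higher in Y79 than the WERI floor of 3 counts per library. After THZ1 this locus had a log2 fold change of -0.28 ± 0.12 (SE; edgeR quasi-likelihood test, adjusted p = 0.0630), and with plain library size the change was -0.84 (adjusted p = 0.000518).

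**Figure D1:**
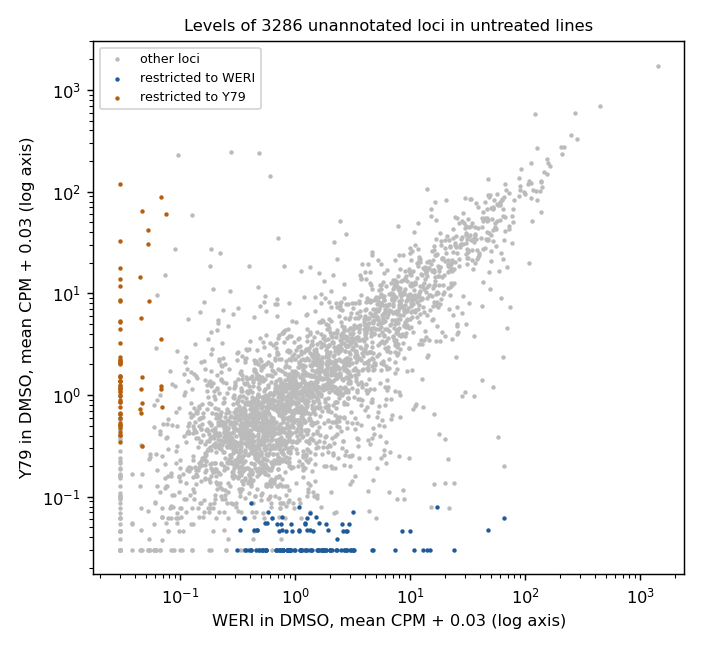
Mean CPM (with 0.03 added) of each locus in WERI (x axis) and Y79 (y axis) DMSO libraries, both axes logarithmic; each point is 1 locus and the restricted loci are coloured. The 131 WERI-restricted and 69 Y79-restricted loci lie along the 2 axes, and the 1905 loci used in both lines scatter around the diagonal.

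The difference between the untreated lines was tested across all 18844 features that passed the low-count filter, of which 3286 were members. At an adjusted p below 0.05 (edgeR quasi-likelihood test, Benjamini-Hochberg), 735 loci were higher in Y79 than in WERI, where 29.9% of all features were called in that direction. Another 856 were lower in Y79, against 31.0% of all features. The shares of loci called, 22.4% and 26.05%, were below the background in both directions. With a change of at least 2-fold also required, the order was the opposite. Such calls covered 544 loci higher in Y79 (16.6%, against 11.7% of all features) and 683 lower (20.8%, against 18.8%). The loci had lower counts and a wider spread than annotated genes, which limits calls of small differences among them.

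After THZ1 the loci took a larger share of the total counts in both lines. In WERI their share was 2.72%, 2.69% and 2.78% in the DMSO libraries and 4.38%, 4.58% and 4.37% in the THZ1 libraries. The means were 2.73 ± 0.0465% and 4.44 ± 0.121% (SD, n = 3), a 1.63-fold difference. In Y79 the shares were 2.88%, 2.76% and 2.78% with DMSO and 5.08%, 4.03% and 5.00% with THZ1, with means of 2.81 ± 0.0681% and 4.71 ± 0.588%. The treated libraries lay above the control libraries in both lines without overlap. Each difference had p = 0.1 in a two-sided exact permutation test, the smallest value that 3 against 3 libraries can give. Y79 THZ1 replicate 2, the library with more ribosomal protein mRNA, had the lowest treated share. In bulk RNA a change in the number of cells and a change in RNA per cell cannot be told apart.

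A large part of that difference lay in 14 loci whose identifiers fall within 17 consecutive numbers. They were picked out after their values had been seen, so they are described without a test. They held 0.114 ± 0.0209% of WERI counts in DMSO and 1.11 ± 0.0365% with THZ1 (SD, n = 3), a 9.76-fold difference. In Y79 they held 0.146 ± 0.0615% and 1.496 ± 0.151%, a 10.25-fold difference. The run made up 58.1% of the increase in share in WERI and 71.1% in Y79. Without it the share of the other loci was 2.62 ± 0.0648% and 3.34 ± 0.0888% in WERI, and 2.66 ± 0.0177% and 3.21 ± 0.448% in Y79. These values still did not overlap between treated and control libraries (exact permutation p = 0.1 in each line). In Y79 the margin was narrow, with THZ1 replicate 2 at 2.692% and the highest DMSO library at 2.673%. The run was left out after its values had been seen, and the test does not allow for that choice.

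The share was also computed without the most abundant members. They were ranked by counts over all 12 libraries, treated ones included, so the ranking itself favours the removal of loci that are higher with THZ1, and no test is given. Without the 100 most abundant members, the share was 1.51% in DMSO and 1.49% with THZ1 in WERI. In Y79 it was 1.31% and 1.36%. Without the 10 most abundant, WERI libraries still did not overlap, at 2.34% and 2.60%, while in Y79 the groups overlapped (means of 2.28% and 2.51%), with THZ1 replicate 2 at 2.13%.

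Measured against mitochondrial mRNA the direction was the opposite. The MT- mRNAs themselves took 3.87 ± 0.111% of WERI counts with DMSO and 10.6 ± 0.726% with THZ1, and 4.202 ± 0.262% and 9.28 ± 0.729% in Y79 (SD, n = 3). Per 100 MT- mRNA counts the loci had 70.6 ± 3.22 counts in WERI DMSO libraries and 42.1 ± 4.15 in THZ1 libraries. In Y79 they had 66.9 ± 4.15 and 50.5 ± 2.52 counts. The groups again did not overlap (exact permutation p = 0.1 in each line). The run of 14 loci was higher on this scale as well, with 2.93 (DMSO) and 10.5 (THZ1) counts per 100 MT- counts in WERI, and 3.49 and 16.1 counts in Y79. The other loci had 67.7 and 31.6 counts in WERI, and 63.5 and 34.4 in Y79.

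**Figure D2:**
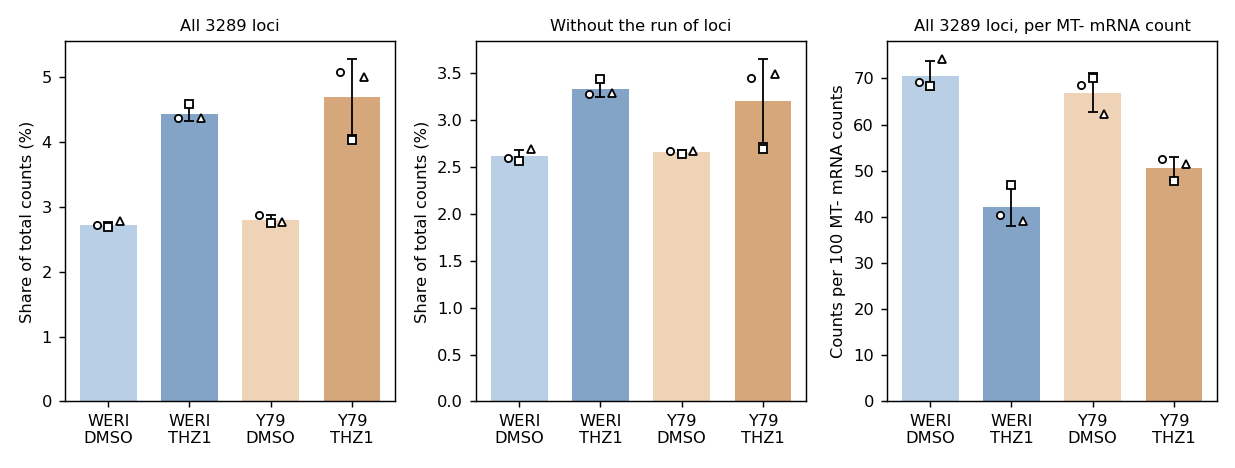
Summed counts of the loci in each library, by group: percent of total counts for all 3289 loci (left) and without the run of 14 loci (middle), and counts per 100 MT- mRNA counts (right); bars are group means, whiskers are SD (n = 3), and circles, squares and triangles are replicates 1, 2 and 3. THZ1 libraries lie above DMSO libraries in the first 2 panels and below them in the third panel.

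Each locus of the run had a positive fitted log2 fold change after THZ1 in both lines, which its selection makes no finding. The values lay between 1.46 and 7.55 in WERI (median 3.79) and between 3.31 and 9.32 in Y79 (median 4.09). Scaled to MT- mRNAs, the medians were 1.90 and 2.38. The run held 9 of the 20 most abundant members. One of its loci had 167, 174 and 133 counts in WERI DMSO libraries and 19334, 20804 and 19636 counts in WERI THZ1 libraries. The Y79 counts were 34, 51 and 76 counts with DMSO and 36352, 14210 and 12351 with THZ1. The treated Y79 libraries therefore differed among themselves by more than 2-fold, while the treated WERI libraries were close together.

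Counts of a consecutive pair within the run were divided differently from library to library. In the WERI THZ1 libraries the first locus of the pair had 16493, 61445 and 59236 counts, and the second had 55510, 15075 and 11115. The sums were 72003, 76520 and 70351, so the highest was 1.09 times the lowest. In the Y79 THZ1 libraries the first had 91353, 46809 and 25442 counts and the second 17057, 48924 and 66584, with sums of 108410, 95733 and 92026. The first locus held between 22.9% and 84.3% of the pair's counts in treated libraries. In DMSO libraries its part was 28.4% to 31.5% in WERI and 37.8% to 38.7% in Y79. Taken as a single feature the pair had 226 ± 61.6 CPM with DMSO and 2512 ± 82.5 CPM with THZ1 in WERI (SD, n = 3). For Y79 the values were 312 ± 129 and 4122 ± 446 CPM. Counts of either locus alone are therefore uncertain, and the sources used here do not say how reads were shared between loci.

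**Figure D3:**
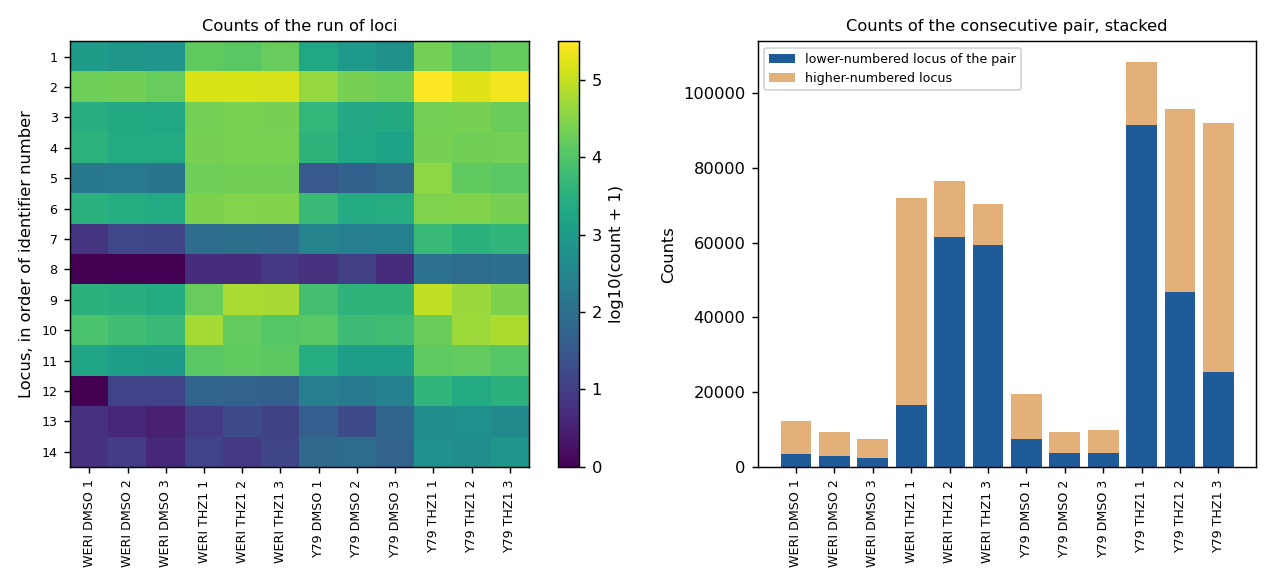
Left, log10(count + 1) of the 14 loci of the run (rows, in order of identifier number) in the 12 libraries (columns); right, stacked counts of the consecutive pair in each library. Group means are higher with THZ1 than with DMSO within each line in every row, though single libraries overlap in the sparsest rows, and in treated libraries the pair's sum varies less than its division into 2 loci.

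Locus by locus, THZ1 was followed by more increases than decreases in WERI. With TMM scaling, 1204 of 3286 loci were called higher (36.6%, against 29.0% of all features) and 337 were called lower (10.3%, against 31.2%; edgeR quasi-likelihood test, adjusted p below 0.05). The median log2 fold change was 0.50 over the loci, -0.11 over Ensembl genes and 0.00 over all features. With the loci that were at 0 in a group set to the bound given by 3 counts per library, the median over the loci was 0.49. Changes of at least 2-fold were called upward for 931 loci (28.3%, against 14.6% of all features) and downward for 212 (6.45%, against 14.4%).

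The same held in Y79. There 1307 loci were called higher (39.8%, against 31.3% of all features) and 343 lower (10.4%, against 32.3%). The median was 0.63 over the loci, or 0.60 with the bounds, against -0.09 over Ensembl genes. Changes of at least 2-fold were called upward for 1055 loci (32.1%, against 17.8% of all features) and downward for 237 (7.21%, against 17.0%). Fitted changes of at least 8-fold, which include loci at 0 in a group, were called upward for 345 loci in Y79 (10.5%, against 3.86% of all features) and 292 in WERI (8.89%, against 2.81%). Downward they were called for 33 loci in Y79 (1.00%, against 1.11%) and 34 in WERI (1.03%, against 0.610%). In both lines the members had passed a summed-count minimum that was not required of the Ensembl genes. Of the members, 764 reached it only with the group in which they were highest. Loci low in DMSO and high with THZ1 could enter that way, so these shares are not a like-for-like contrast.

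The balance of higher and lower calls moved with the scaling. Dividing by library size alone gave 787 higher and 607 lower loci in WERI, where 16.6% and 45.6% of all features were called. In Y79 it gave 831 and 627, against 16.5% and 47.7%. On this scale the median over all features was -0.45 in WERI and -0.50 in Y79, while the median over the loci was 0.06 and 0.07. Scaling to the MT- mRNAs gave 271 higher and 1999 lower loci in WERI, against 2.33% and 82.3% of all features. In Y79 it gave 352 and 1663, against 3.70% and 74.1%. The median over the loci was then -1.35 in WERI and -1.01 in Y79, against -1.89 and -1.65 over all features. Of the loci called in either direction, 78.1% were higher with TMM in WERI, 56.5% with library size and 11.9% with MT- scaling. In Y79 those shares were 79.2%, 57.0% and 17.5%.

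Some loci were called alike under TMM, library size and MT- scaling. In WERI 271 loci were called higher and 337 lower under all 3 scalings, and in Y79 352 and 343. The higher counts equal those with MT- scaling alone (8.25% in WERI, against 2.33% of all features, and 10.7% in Y79, against 3.70%). The lower counts equal those with TMM alone (10.3%, against 31.2%, and 10.4%, against 32.3%). The scalings mostly move all changes together, so this agreement adds no support beyond the strictest scaling. With RLE size factors required as well, the higher counts were again 271 and 352. The lower counts were 298 and 296, those with RLE alone. In both lines and under all 3 scalings, 216 loci were called higher, again the number with MT- scaling alone. The count of 216 is not set against all features.

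**Figure D4:**
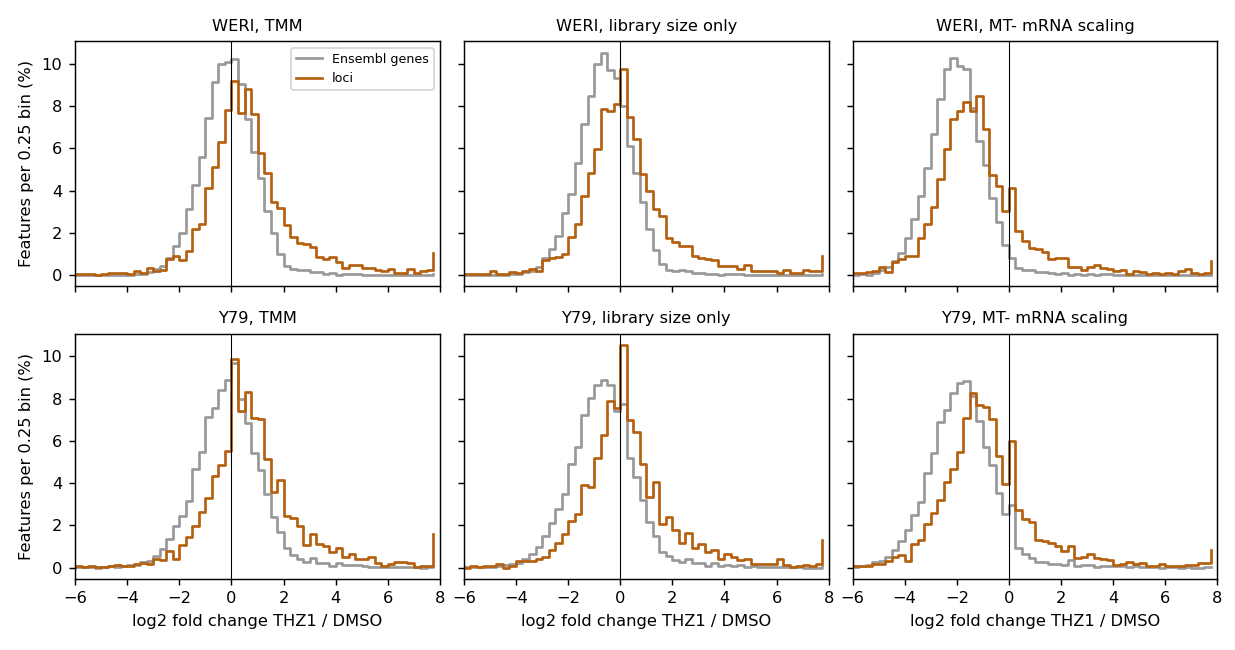
Distribution of the log2 fold change after THZ1 (x axis) over loci and over Ensembl genes, as percent of each class (y axis), for each line and each of the 3 scalings; bins are 0.25 wide, the axis starts at -6 and the last bin collects values above 8. The loci lie to the right of the Ensembl genes in each panel, and both move to the left from TMM to library size to MT- scaling.

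The classes also differed within ranges of average level. Loci and Ensembl genes were compared within 6 ranges of average log2 CPM, divided at -1, 0, 1, 2 and 4. The lowest and highest ranges are open-ended, and the Ensembl genes had no summed-count minimum, so levels there were not matched. In the range from 0 to 1, 37.4% of loci and 16.4% of Ensembl genes were called higher in WERI, and 38.5% and 24.9% in Y79. In the lowest range 20.5% of loci and 9.60% of Ensembl genes were called higher in WERI, and in the highest range 59.8% and 35.0%. In Y79 the shares were 22.2% and 16.5% in the lowest range and 58.8% and 35.8% in the highest. Lower calls in the highest range covered 14.6% of loci and 42.8% of Ensembl genes in WERI, and 17.4% and 45.1% in Y79. In the lowest range they covered 2.56% and 4.91% in WERI and 5.12% and 4.80% in Y79, where the loci were called lower slightly more often. The share of higher calls was larger for the loci in each of the 6 ranges in both lines.

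The most abundant locus of all rose in both lines. Its counts were 62707, 58371 and 62014 in WERI with DMSO and 200727, 208506 and 215686 with THZ1. In Y79 they were 74485, 69024 and 71179 with DMSO and 203214, 121491 and 163906 with THZ1. Its WERI level was 1413 ± 61.7 CPM with DMSO and 7173 ± 232 CPM with THZ1 (SD, n = 3), and the log2 fold change was 2.34 ± 0.0926 (SE; edgeR adjusted p = 3.34e-10). The Y79 levels were 1738 ± 29.1 and 6673 ± 732 CPM, and the log2 fold change was 1.94 ± 0.0913 (edgeR adjusted p = 5.5e-10). Against MT- mRNAs the change was 0.45 in WERI (adjusted p = 0.000753) and 0.23 in Y79 (adjusted p = 0.0571), so the Y79 call did not hold on that scale.

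Loci that rose in both lines were ranked by the smaller of their fitted changes in the lines, and the top-ranked pair had few or no counts in the controls. Against control counts at 0 a fitted change gives no rank by measured fold. Locus newGene_8292 had 0 counts in all 6 DMSO libraries, 221, 219 and 201 counts in WERI THZ1 libraries and 260, 240 and 218 in Y79 THZ1 libraries. Its treated level was 7.36 ± 0.401 CPM in WERI and 10.0 ± 1.40 CPM in Y79 (SD, n = 3). Against a floor of 3 counts per library it was at least 106-fold higher in WERI (edgeR adjusted p = 1.36e-08) and at least 137-fold higher in Y79 (adjusted p = 6.31e-09). The locus was chosen on these same contrasts, so its p-values add no support of their own. Locus newGene_12181 had 0 counts in WERI DMSO libraries and 235, 192 and 239 in WERI THZ1 libraries. Its Y79 counts were 0, 0 and 3 with DMSO and 256, 238 and 215 with THZ1, a ratio of 403 with a 95% counting interval of 137 to 1958. Its treated levels were 7.66 ± 0.998 CPM in WERI and 9.90 ± 1.42 CPM in Y79.

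Such loci formed a small group. In WERI 69 loci were used after THZ1 and had 3 counts or fewer in each DMSO library, and in Y79 there were 77, with 36 in common. The reverse pattern, used with DMSO and at 3 counts or fewer in each THZ1 library, was seen for 7 loci in WERI and 11 in Y79, with 1 in common. At 0 counts in all 6 DMSO libraries and at 10 or more in all 6 THZ1 libraries were 18 loci, whose treated counts ranged from 10 to 260 with a median of 40.5. These sets were chosen on the same contrast and carry no test. No matching counts for Ensembl genes are given, so whether the pattern is particular to the loci cannot be told from these sets.

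Loci that fell in both lines were likewise identified by the smaller of their changes in the lines. Locus newGene_1882 had 260, 216 and 318 counts in WERI DMSO libraries and 9, 15 and 2 in WERI THZ1 libraries. In Y79 it had 442, 507 and 493 counts with DMSO and 2, 17 and 19 with THZ1. The log2 fold change was -4.34 ± 0.540 in WERI (SE; edgeR adjusted p = 1.08e-05) and -4.43 ± 0.517 in Y79 (adjusted p = 4.90e-06). Treated and control libraries did not overlap, which the choice of the locus required, and its p-values likewise add no support of their own. The treated counts were too few to place the remaining level closely.

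Locus newGene_11458 fell further in WERI than in Y79. It had 836, 876 and 1071 counts in WERI with DMSO and 25, 16 and 42 with THZ1. In Y79 it had 766, 761 and 744 with DMSO and 55, 32 and 60 with THZ1. Its WERI level was 21.4 ± 1.84 CPM with DMSO and 0.955 ± 0.459 CPM with THZ1 (SD, n = 3), and its Y79 level was 18.4 ± 0.616 and 2.01 ± 0.472 CPM. The log2 fold changes were -4.48 ± 0.25 and -3.19 ± 0.232, and their difference was 1.30 ± 0.335 (SE; edgeR interaction term, adjusted p = 0.0160). The most abundant locus that was lower by at least 2-fold in both lines, chosen after its values were seen, had 10007, 10746 and 11851 counts in WERI with DMSO and 1771, 1748 and 1895 with THZ1. In Y79 it had 15220, 13486 and 16350 counts with DMSO and 1507, 1250 and 1301 with THZ1.

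The calls overlapped between the lines. With TMM scaling 982 loci were called higher in both, which were 81.6% of the WERI set and 75.1% of the Y79 set. They were 29.9% of the loci tested, against 22.9% of all features. Over all features the shared higher calls were 78.98% of the WERI set and 73.2% of the Y79 set, close to the values for the loci. The 188 loci called lower in both were 55.8% and 54.8% of the 2 sets and 5.72% of the loci tested. Over all features the shared lower calls were 81.4% and 78.7% of the 2 sets and 25.4% of those tested. Over 3286 loci the log2 fold changes of the lines had a Pearson correlation of 0.76; this is across loci, which are not independent replicates. Neither line gave a call for 1278 loci, and 13 were called in opposite directions. The matching counts over all features are not given, so whether these are many or few for the table cannot be told here.

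The change itself differed between the lines for a minority. In the interaction test (edgeR, change in Y79 minus change in WERI) 165 loci were called more positive in Y79, where 7.81% of all features were called, and 104 more negative, against 11.0%. The first count was 273 without Y79 THZ1 replicate 2 and 105 without WERI DMSO replicate 3, so it rests in part on single libraries. Library size alone gave 118 and 132 loci, against 4.60% and 15.0% of all features, and MT- scaling gave 205 and 53, against 10.6% and 4.06%.

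Among the 13 loci with opposite calls, 4 were higher in WERI and lower in Y79 and 9 showed the reverse. With library size alone 2 of the 13 kept opposite calls, and with MT- scaling 1 did. Those scalings gave 17 and 18 loci with opposite calls in all, so mostly other loci were involved. The one with the largest difference among those with at least 10 counts in every library had 213, 201 and 233 counts in WERI with DMSO and 79, 117 and 88 with THZ1. Its Y79 counts were 353, 218 and 303 counts with DMSO and 349, 341 and 267 with THZ1. Its log2 fold change was -0.61 in WERI and 0.92 in Y79 with TMM, and -1.06 and 0.35 with library size. On the MT- scale both values were negative, -2.50 and -0.78.

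**Figure D5:**
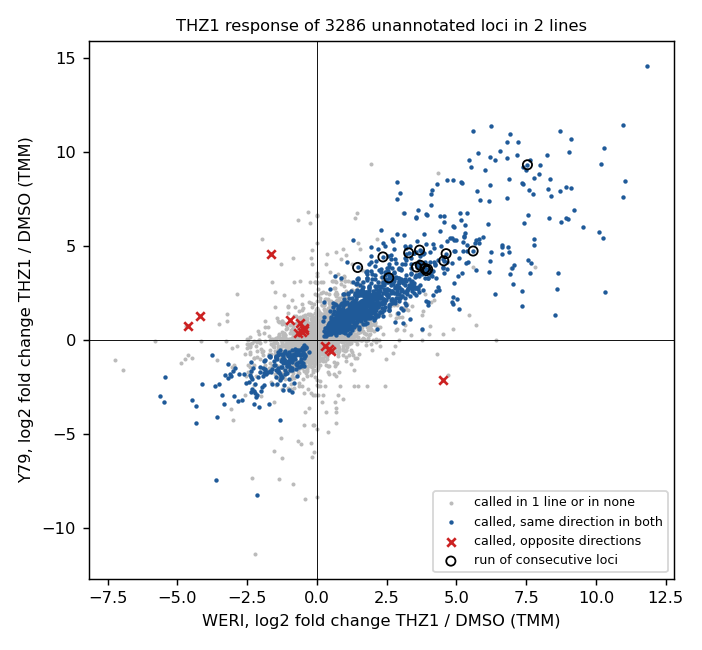
Log2 fold change after THZ1 in WERI (x axis) against Y79 (y axis), TMM scaling; each point is 1 of 3286 loci, coloured by its calls, with the run of 14 loci outlined. Most called loci lie in the upper right, where 982 are called higher in both lines.

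Agreement between the 3 libraries of a group was lower for loci than for annotated genes. Among the loci used in a group, the highest and lowest CPM lay within 2-fold for 85.7% in WERI DMSO, 83.5% in WERI THZ1, 83.6% in Y79 DMSO and 76.5% in Y79 THZ1. For Ensembl genes the shares were 96.9%, 95.9%, 96.75% and 92.1%. Among loci with at least 100 counts the shares were 97.6%, 97.9%, 97.0% and 93.9%, over 807 to 904 loci. For Ensembl genes with the same minimum they were higher in each group, at 99.62%, 99.65%, 99.59% and 97.85%. Agreement was lowest in Y79 THZ1, the group that holds the library that stands apart. Libraries of a group differed by more than 4-fold at 25 to 43 loci.

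Replicate spread followed abundance. The median biological coefficient of variation estimated by edgeR was 0.283 over the loci and 0.118 over Ensembl genes. Within the ranges of average level it was 0.442 for loci and 0.5002 for Ensembl genes in the lowest range, 0.288 for both in the third, and 0.107 and 0.0905 in the highest. Replicate spread was thus similar for loci and Ensembl genes of the same range, and somewhat wider for loci in the upper ranges. The lowest and highest ranges are open-ended, so levels there were not matched.

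Loci with neighbouring identifier numbers had more similar changes than loci with distant ones. The rule on members used no identifier order, and the sources used here do not say whether the numbers follow the genome. Over 1074 pairs with consecutive numbers, the correlation of their log2 fold changes after THZ1 was 0.26 in WERI and 0.30 in Y79, and that of their Y79 to WERI difference was 0.44. At a gap of 10 numbers these values were 0.05, 0.03 and 0.04, and at a gap of 500 they were 0.01, 0.00 and 0.00. Without the run the values for consecutive numbers were 0.24, 0.28 and 0.43. These are correlations across loci, given as description. Counts of loci are therefore counts of table entries, and whether neighbouring numbers are pieces of 1 transcript was not tested.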

How the data were processed

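Raw counts per feature were deposited by the authors as a table of 12 libraries (NEBNext Ultra RNA kit, per the labels' protocols). The submitters' processing notes name Cufflinks and GRCh38 (aligner, counting tool and the step that defined the loci: not given in the sources used here). All columns were matched to samples by name. Members and lists were chosen with earlier results of these data known.

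One edgeR 4.0.16 quasi-likelihood model (R 4.3.3) was fitted to all 18844 features that passed filterByExpr, with 4 groups, 8 residual degrees of freedom and TMM scaling; 3 members did not pass. Contrasts were THZ1 against DMSO in each line, their difference, and Y79 against WERI in DMSO. P-values were adjusted by Benjamini-Hochberg over all features, with a threshold of 0.05, and measure the spread between the 3 libraries of a group. Library size alone, MT- mRNA scaling, RLE size factors, no filter, DESeq2 1.42.0, summed-count minimums of 60 and 240 and leaving out each library were alternatives. Shares were compared by two-sided exact permutation tests (SciPy 1.17.1). CPM in the text are TMM-scaled. Counting intervals are exact (Clopper-Pearson, 95%); they and the floor of 3 counts per library cover counting error only. The identified loci were the 2 largest rises and 2 largest falls, ranked by the smaller change of the lines, among loci called alike in both lines under TMM and library size, with treated and control libraries apart and an average log2 CPM not below 2. The code was tested on simulated data for THZ1 against DMSO in WERI. Log2 changes of 2 were recovered for 46% of 50 changed loci and 92% of 50 Ensembl genes. Changes of 1 were recovered for 14% and 58%, and 5 unchanged features were called. Few of the simulated features were changed, whereas in the data 29.0% of all features were called higher and 31.2% lower in that contrast. The recovered shares therefore do not carry over to the data, and how many real changes went uncalled was not measured.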

Additional observations from a re-analysis of the deposited data

Results flagged for a closer look

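The THZ1 response of some loci differed between the lines by the interaction term (edgeR, change in Y79 minus change in WERI). It was more positive in Y79 at 165 loci (5.02%, against 7.81% of all features) and more negative at 104 (3.165%, against 11.0%). These shares were below those over all features. In the lines 13 loci were called in opposite directions, a count not set against all features. Some of the loci described singly in the report were among those that differed. For newGene_11458 the difference was 1.30 on the log2 scale, the fall being smaller in Y79. For the most abundant locus it was -0.40 (adjusted p = 0.0379), the rise being smaller in Y79. For the most abundant locus lower by at least 2-fold in both lines it was -0.68, the fall being larger in Y79. That locus was chosen after its values were seen, so no p-value is given. For the locus with opposite calls it was 1.54. It was chosen for the size of that difference, so the value is no finding of its own. The cause of these differences was not tested.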

How the results depend on the processing

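Of the processing choices, scaling moved the results most. Library size alone gave 787 higher and 607 lower loci in WERI and 831 and 627 in Y79, and MT- mRNA scaling gave 271 and 1999, and 352 and 1663. For the difference between the lines, 53 loci were more negative in Y79 with MT- scaling and 251 more positive with DESeq2. With counts divided by those of the MT- mRNAs, an alternative chosen after seeing the data as was leaving out the run, the locus level was lower after THZ1, by -28.49 counts per 100 in WERI and -16.39 in Y79. Replicate agreement within 1.5-fold was 60.82% in WERI DMSO, 58.08% in WERI THZ1, 60.67% in Y79 DMSO and 46.73% in Y79 THZ1.

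Replicate numbers did not pair the libraries: same-numbered deviations had correlations of -0.0447 to 0.0147. With the replicate block the counts were 1137 higher and 309 lower in WERI, 1249 and 316 in Y79, 129 and 85 for the difference, and 696 and 797 between untreated lines. Leaving out each library in turn gave 1030 to 1229 higher and 271 to 389 lower loci in WERI, and 1181 to 1302 and 285 to 352 in Y79. For the difference the ranges were 105 to 273 and 80 to 148, with the lowest first count without WERI DMSO replicate 3 and the highest without Y79 THZ1 replicate 2. Between untreated lines they were 637 to 760 and 737 to 909. The rise in share ranged from 1.64 to 1.75 percentage points in WERI and from 1.71 to 2.24 in Y79. Among the leave-one-out values 2 moved beyond the limits set. Of the other alternatives, 127 values stayed within the limits, 14 moved and 2 reversed direction. The reversed values were the locus levels per 100 MT- mRNA counts in WERI and Y79. The 4 identified loci kept direction and call in all 144 alternative values. They were chosen as large changes already called under TMM and library size, so this stability was largely set by their choice. Low counts limit single loci: the median summed count was 550 over 12 libraries.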
